A study of Triticum aestivum with 15 samples.

Results

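In flag leaves of winter wheat, 62 annotated loci were expressed in every dry library at grain filling (GF) and were close to silent in well-watered plants of that stage, in both cultivars. They were chosen by their levels in these same libraries, from the 122017 loci of the assembled catalogue, of which 110167 carry a reference gene. Each has at least 5 FPKM (fragments per kilobase of transcript, scaled to the size of the library) in each of the 4 dry GF libraries and at most 1 FPKM in each of the 4 wet ones. Before exclusions 71 loci met these limits. Of these, 7 on the first parts of chromosomes 1A, 1B and 1D and 2 of the listed dehydrin, proline and caleosin loci were left out. The difference between dry and wet leaves at GF is therefore a description of how the loci were selected and was not tested, whereas the levels at heading (HD) played no part in the selection and the cultivars entered it only through the same limits for both.

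The study compared TAM112 with TAM111, a pair of hard red winter bread wheat cultivars that share part of their pedigree, under a dry treatment, in which watering was reduced from jointing on, and a wet treatment that was fully irrigated. Flag leaves of primary tillers were taken at HD, 79 days after transplanting, and at middle GF, 100 days after transplanting, and leaves of 4 plants were pooled into each sample. The 15 libraries fall into 8 groups of cultivar, stage and treatment with 2 libraries each, except TAM111 at HD under wet, which has 1. Stage, leaf age and days under the treatment change together, so they cannot be told apart. Rubisco activase, a chloroplast enzyme of green leaves, was read at XLOC_064620 in all libraries, between 3.05 and 166 FPKM. Other leaf loci fell lower. The Rubisco activase loci XLOC_060058 and XLOC_055794 had 1.29 and 0.371 FPKM in their lowest library. The chlorophyll a-b binding protein loci XLOC_073423 and XLOC_079699 had 0.672 and 0.540 FPKM there.

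A leaf that loses water makes the hormone abscisic acid (ABA), which closes stomata and turns on a set of protective genes. Dehydrins and other late embryogenesis abundant (LEA) proteins are very hydrophilic and are known to protect membranes and proteins in drying cells, and they are best known from maturing seeds. Heat shock proteins are chaperones that keep other proteins from aggregating. Many of these genes are nearly silent in watered leaves, so they are described as induced by dehydration. A change in FPKM of whole leaves cannot tell fewer or more cells of a type apart from less or more RNA per cell.

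Some libraries stood apart before any result was read. To look for mixed samples, loci were taken that had 1 FPKM or more in all TAM112 libraries and at most 0.1 FPKM in all TAM111 libraries of the other stage. Of the 70 such loci that served for HD, 38.6% had 1 FPKM or more in replicate 1 of TAM111 at HD under dry, against between 5.71% and 12.9% in the other TAM111 libraries of HD. For GF the list was another and longer one, and of its loci the share in replicate 1 of TAM111 under wet was 49.5%, against between 18.0% and 21.6% in the other TAM111 libraries of GF. Replicate 1 of TAM112 at HD under dry stood apart at the members themselves, as described with the results at HD. Totals of fragments were not in the deposited tables. An estimate from the confidence bounds and the full transcript length was between 5.39 M and 7.52 M fragments per library. The study reports far more filtered reads per sample, most of them mapped, so this estimate is not its sequencing depth. What makes them differ was not tested. A shorter effective length would give a higher estimate, while the fragment numbers given for single values rest on the bounds alone. These numbers come from the 1 entry that best overlaps the locus, whereas FPKM was summed over all its entries. The estimate takes the width of the bounds as counting error, and implied fragment numbers of low values were within 0.1 of a whole number for between 85.3% and 86.4% of them.

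At GF under dry the mean of the 62 loci over the 4 libraries was between 5.48 and 120 FPKM, with a median of 16.1 FPKM. Under wet, 150 of the 248 values were listed at 0, and 24 loci were listed at 0 in all 4 libraries. The members are not 1 pathway: 12 have a product name in the study's supplementary lists and 50 have none there. Just inside the dry limit stood XLOC_080634 and XLOC_021694, with a lowest dry value of 5.03 FPKM each, and just outside it XLOC_027596 and XLOC_069207, with 4.96 and 4.90 FPKM. At the wet limit, the highest wet value was 0.987 and 0.982 FPKM at XLOC_050974 and XLOC_073589, which were kept, and 1.001 and 1.009 FPKM at XLOC_037772 and XLOC_022237, which were not.

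**Figure D1:**
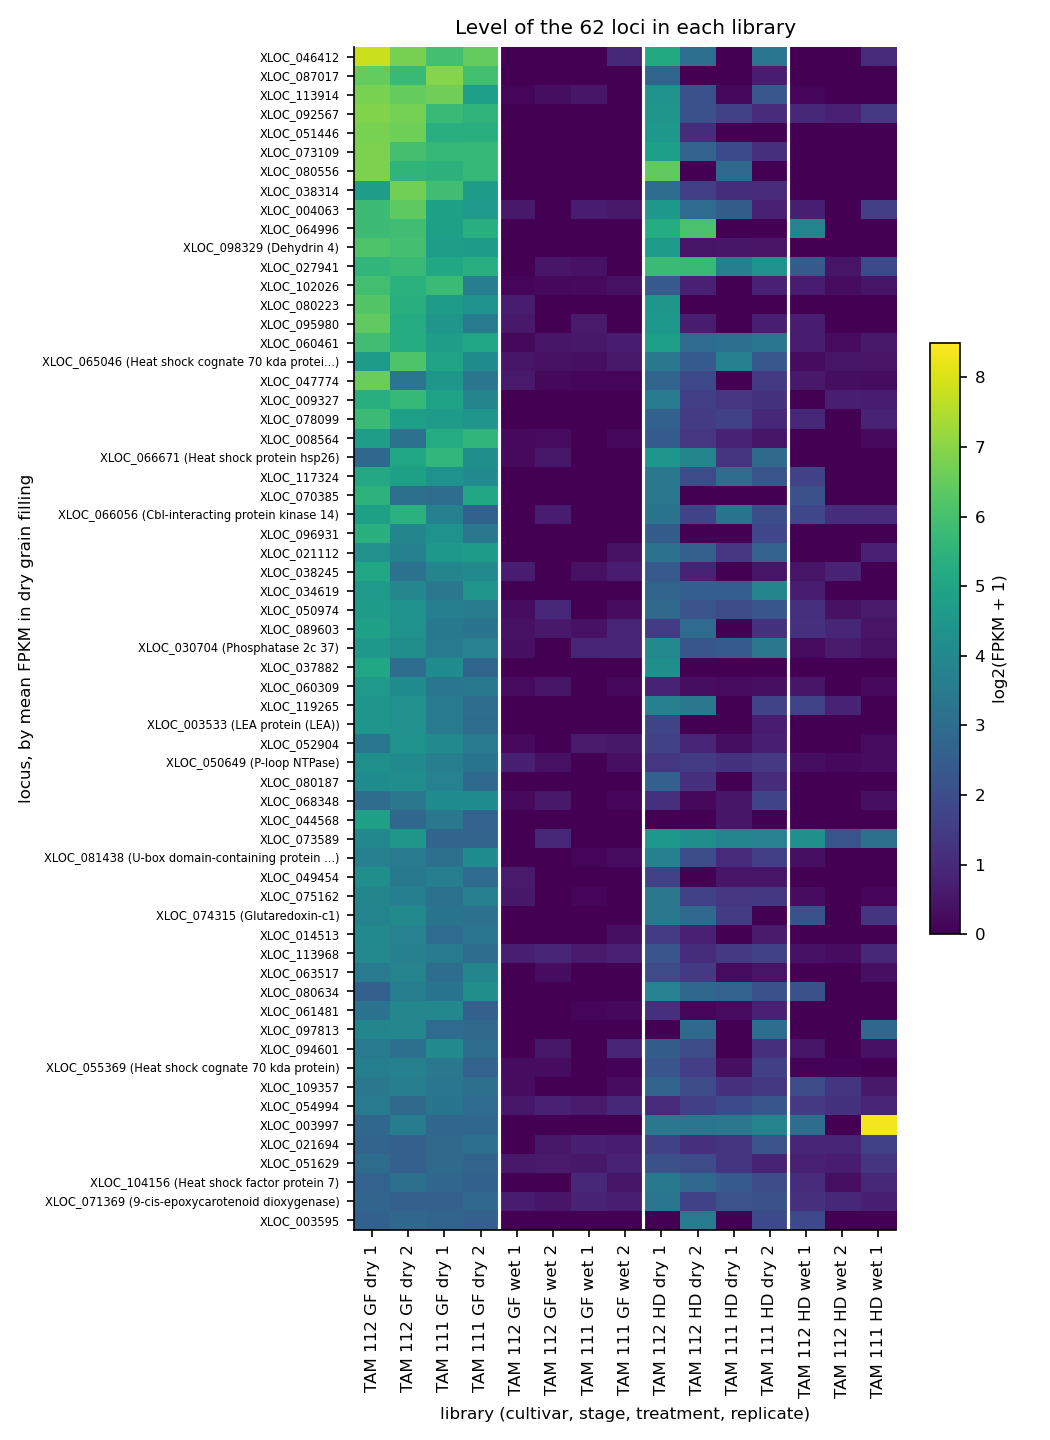
Level of each of the 62 loci (rows, ordered by the mean FPKM in dry GF leaves) in each of the 15 libraries (columns), as log2(FPKM + 1) on the color scale. The 4 dry GF libraries are filled and the 4 wet GF libraries dark by the way the loci were chosen, and at HD most loci are dark in the wet libraries and part of them are intermediate in the dry ones, most of all in replicate 1 of TAM112.

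Of the protective proteins of the LEA class, 1 dehydrin and 1 LEA locus were members. XLOC_098329 (TraesCS6D01G332900, Dehydrin 4, 2 exons on part 1 of chromosome 6D, 435351117 to 435351898, IWGSC RefSeq v1.0) had 70.4 and 60.7 FPKM in dry TAM112 and 25.3 and 25.0 FPKM in dry TAM111 at GF, and was listed at 0 in all wet libraries of both stages. At HD under dry it had 24.0 and 0.38 FPKM in TAM112 and 0.445 and 0.364 FPKM in TAM111, so 1 library held nearly all of its signal at that stage. The dry–wet change at HD was 1.52 ± 0.78 (SE) on the log2(FPKM + 1) scale, and did not pass the test (limma with Benjamini-Hochberg adjustment, adjusted p = 0.509). Without replicate 2 of TAM112 under dry at HD, which had the 0.38 FPKM, the adjusted p was 0.000949, and without replicate 1 the change was 0.48 (adjusted p = 0.320). The locus was called in 1 of 14 fits that each left out 1 library, with adjusted p between 0.000949 and 0.656. A second locus, XLOC_100236, overlaps it with the same gene name, so the FPKM of this gene may be split between the 2 loci.

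The LEA locus XLOC_003533 (TraesCS1A01G364000, on part 2 of chromosome 1A, 72872577 to 72873722) had 21.1 and 18.5 FPKM in dry TAM112 and 10.3 and 6.99 FPKM in dry TAM111 at GF, and 0 in the 4 wet libraries. The cultivars did not overlap there. At HD it was almost silent also under dry, with 2.46 and 0 FPKM in TAM112 and 0 and 0.583 FPKM in TAM111, and it was listed at 0 under wet. Both genes were thus among those with a low level at HD, at 13.9% and 5.35% of their mean in dry GF leaves.

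Of the 4 loci of chaperones and their regulator, 3 were called up at HD, where the limma fit over both stages called 0.381% of all loci up, and none of the 3 was called in a fit to the HD libraries alone. XLOC_065046 (TraesCS4D01G206600, a heat shock cognate 70 kDa (HSC70) protein, on part 1 of chromosome 4D, 354136050 to 354138155) had 24.8 and 70.3 FPKM in dry TAM112 and 30.1 and 16.8 FPKM in dry TAM111 at GF, against at most 0.496 FPKM in wet leaves. HSC70 proteins fold newly made and damaged proteins. At HD it had 9.69 and 4.59 FPKM in dry TAM112 and 11.9 and 3.93 FPKM in dry TAM111, against 0.210, 0.400 and 0.365 FPKM in the 3 wet libraries, and rose by 2.56 ± 0.46 (SE, log2 scale, adjusted p = 0.0353, limma with Benjamini-Hochberg adjustment, mean of both cultivars). The order of replicates is not firm at this locus. In its best-overlapping entry the dry TAM112 libraries of GF held 316 and 237 fragments, and the dry TAM111 libraries of HD held 26.3 and 48.7. The call was made in 6 of 14 fits that each left out 1 library, with adjusted p between 0.0286 and 0.101 over these fits.

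A further HSC70 locus, XLOC_055369 on chromosome 4A (TraesCS4A01G098600), had 11.8 and 12.2 FPKM in dry TAM112 and 9.55 and 5.41 FPKM in dry TAM111 at GF. At HD it had 3.78 and 1.91 FPKM in dry TAM112 and 0.278 and 2.03 FPKM in dry TAM111, all above the wet libraries, of which the highest had 0.0686 FPKM. Its change of 1.39 ± 0.33 did not pass the test (adjusted p = 0.0952, limma with Benjamini-Hochberg adjustment), but passed without replicate 1 of TAM111 under dry at HD (adjusted p = 0.0323).

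XLOC_066671 (TraesCS4D01G226000, a small heat shock protein named hsp26, on part 1 of chromosome 4D, 384975222 to 384976356) had its lowest and its highest dry GF value in different cultivars, with 6.26 and 32.0 FPKM in dry TAM112 and 48.8 and 17.8 FPKM in dry TAM111. Small heat shock proteins bind unfolding proteins without ATP. At HD, TAM112 was above TAM111 under dry, with 21.3 and 13.9 FPKM against 1.49 and 6.72 FPKM, and the locus was listed at 0 in the 3 wet libraries. It rose at HD by 3.16 ± 0.59 (adjusted p = 0.0428, limma with Benjamini-Hochberg adjustment), a call that was made in 5 of 14 fits that each left out 1 library, with adjusted p between 0.0245 and 0.119.

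XLOC_104156 (TraesCS7A01G270100, a heat shock factor of the kind that binds heat shock promoters, on part 1 of chromosome 7A, 276184867 to 276186319) had nearly the same mean at both stages under dry, 6.08 FPKM at GF and 5.91 FPKM at HD. Its dry HD libraries had 9.82 and 6.57 FPKM in TAM112 and 4.41 and 2.84 FPKM in TAM111, against 1.09, 0.278 and 0.928 FPKM under wet. It rose by 1.85 ± 0.26 (adjusted p = 0.0135, limma with Benjamini-Hochberg adjustment), and was called in all 14 fits that left out 1 library.

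ABA synthesis and ABA signaling were represented by 1 locus each, and 1 kinase locus of calcium signaling is described after them. XLOC_071369 (TraesCS5A01G374000, a 9-cis-epoxycarotenoid dioxygenase, the enzyme that cleaves carotenoids in the step that limits ABA synthesis, on part 2 of chromosome 5A, 118790985 to 118792760) had 5.86 and 5.09 FPKM in dry TAM112 and 5.16 and 6.54 FPKM in dry TAM111 at GF, close to the lower limit of the selection in all 4. At HD it had 9.0 and 2.16 FPKM in dry TAM112 and 3.51 and 3.35 FPKM in dry TAM111, against 1.32, 0.923 and 0.677 FPKM under wet. The groups did not overlap, and the change of 1.41 ± 0.34 did not pass the test (adjusted p = 0.110, limma with Benjamini-Hochberg adjustment), but passed without replicate 2 of TAM112 under dry at HD (adjusted p = 0.00614) and not without replicate 1 (0.99, adjusted p = 0.0659).

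Downstream of the ABA receptors, protein phosphatases 2C hold the pathway off, and several are known to be induced by ABA as feedback. XLOC_030704 (TraesCS2D01G000300, phosphatase 2C 37, on part 1 of chromosome 2D, 58098 to 62142) had 22.3 and 17.4 FPKM in dry TAM112 and 10.3 and 12.6 FPKM in dry TAM111 at GF. At HD it had 15.2 and 3.87 FPKM in dry TAM112 and 4.47 and 9.28 FPKM in dry TAM111, against 0.178, 0.516 and 0.304 FPKM under wet, and rose by 2.63 ± 0.40 (adjusted p = 0.0188, limma with Benjamini-Hochberg adjustment). The call was lost in 2 of 14 fits that left out 1 library, those without replicate 2 of TAM111 under dry and without replicate 1 of TAM112 under wet at HD (adjusted p = 0.0559 and 0.0510).

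XLOC_066056 (TraesCS4D01G118500, CBL-interacting protein kinase 14, on part 1 of chromosome 4D, 99161085 to 99163973) belongs to the kinases that carry calcium signals from calcineurin B-like sensors. At GF under dry it had 27.2 and 41.7 FPKM in TAM112 and 12.4 and 5.26 FPKM in TAM111, the largest difference between the cultivars among the 61 members tested (1.92 ± 0.60 on the log2 scale), which did not pass the test (adjusted p = 0.194, limma with Benjamini-Hochberg adjustment). At HD the dry libraries had 8.55 and 2.46 FPKM in TAM112 and 8.71 and 3.13 FPKM in TAM111, so the cultivars overlapped there, and 2.50, 1.15 and 1.13 FPKM were found under wet.

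The last named products were of mixed roles. XLOC_081438 on chromosome 5D (TraesCS5D01G204700, U-box domain-containing protein 19) belongs to a family of ubiquitin ligases, and its 4 dry HD libraries, between 1.08 and 12.2 FPKM, were all above the 3 wet ones, of which the highest had 0.263 FPKM. Its change of 2.0 ± 0.41 did not pass the test (adjusted p = 0.0567, limma with Benjamini-Hochberg adjustment), but passed without replicate 2 of TAM112 under dry at HD (adjusted p = 0.0133) and not without replicate 1 (1.58, adjusted p = 0.0732). XLOC_074315 on chromosome 5B (TraesCS5B01G048900, glutaredoxin-C1) reduces disulfides as a small redox protein. It had between 8.19 and 15.3 FPKM in dry GF leaves, but at HD its dry values, between 0 and 9.65 FPKM, overlapped the wet ones, between 0 and 3.41 FPKM.

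XLOC_050649 on part 1 of chromosome 3D (TraesCS3D01G159200, 128544307 to 128550444, 13 exons) was the longest member and is named only as a P-loop nucleoside triphosphate hydrolase. It had 18.5 and 16.0 FPKM in dry TAM112 and 11.6 and 8.78 FPKM in dry TAM111 at GF. At HD its 4 dry libraries were close together, between 1.39 and 1.76 FPKM, against between 0.137 and 0.256 FPKM in the wet ones. The rise of 1.11 ± 0.19 passed the test (adjusted p = 0.0278, limma with Benjamini-Hochberg adjustment) at a low level, and it was called in 8 of 14 fits that left out 1 library. The call was lost in each of the 6 fits that left out an HD library, with adjusted p between 0.0528 and 0.0804.

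The members with the highest levels at GF have no product name, so nothing is said of their function. XLOC_046412 on chromosome 3B (TraesCS3B01G336300) had 223 and 108 FPKM in dry TAM112 and 61.2 and 87.4 FPKM in dry TAM111. At HD it had 35.2 and 7.54 FPKM in dry TAM112 and 0 and 9.06 FPKM in dry TAM111, and at most 1.06 FPKM under wet. XLOC_087017 on chromosome 6A (TraesCS6A01G091400) had 89.2 and 53.5 FPKM in dry TAM112 and 124 and 60.1 FPKM in dry TAM111 at GF. It was close to silent at HD, with a mean in dry HD leaves of 1.93% of that in dry GF leaves and a single dry HD library over 1 FPKM, at 5.74 FPKM.

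XLOC_113914 on chromosome 7D (TraesCS7D01G189400) had 110 and 89.1 FPKM in dry TAM112 and 101 and 26.9 FPKM in dry TAM111 at GF, XLOC_092567 on chromosome 6B (TraesCS6B01G011400 and TraesCS6B01G011500) had 117 and 105 FPKM and 53.3 and 44.8 FPKM, and XLOC_051446 on chromosome 3D (TraesCS3D01G301600) had 109 and 98.6 FPKM and 39.2 and 40.1 FPKM, in the same order. In each of these 3 loci the highest HD value was that of replicate 1 of TAM112 under dry, at 19.1, 20.4 and 22.2 FPKM. Replicate 2 of the same group had 3.40, 3.46 and 1.18 FPKM. None of the 5 loci passed the test at HD, where adjusted p lay between 0.212 and 0.660 (limma, Benjamini-Hochberg). Without replicate 2 of TAM112 under dry at HD, XLOC_092567 and XLOC_051446 passed (adjusted p = 0.0141 and 0.00131), and without replicate 1 of TAM111 under dry XLOC_046412 did (adjusted p = 0.0485). Without replicate 1 of TAM112 under dry the changes of XLOC_092567 and XLOC_051446 were 0.59 and 0.56 (adjusted p = 0.365 and 0.207).

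At HD the same loci were mostly low under wet, and under dry they were raised to a part of their GF level. Of the 62 members, 39 were at or under 1 FPKM in all 3 wet HD libraries, against 7003 of the 49025 loci tested. In the 4 dry HD libraries 42 members reached 5 FPKM in at least 1 and 4 did so in all of them. Shares over all loci were not taken for the counts under dry. Only XLOC_060461 met both limits of the selection at HD, and 2 members, XLOC_060309 and XLOC_044568, stayed at or under 1 FPKM in all 7 HD libraries. The median member reached 18.9% of its mean in dry GF leaves, with 19 members under 10% and 9 over 50%. The selection set a lower limit for the dry GF level and none for HD, so a lower level at HD is partly fixed by it. The groups of the 2 stages differ in leaf age as well, and this comparison was not tested.

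The 4 dry HD libraries were all above the 3 wet ones at 25 of the 61 members tested, against 6.65% of the 49025 loci tested, and at 0 members all below, against 4.80% of those loci. A locus at 0 in any wet library cannot have every dry library below it. Most members were low under wet, so the absence of members with all dry libraries below is partly fixed by that level. All loci tested were not matched to that level, which also limits the comparison of the shares with all dry libraries above. Within TAM112 both dry libraries were above both wet ones at 44 members, against 22.7% of all loci tested. With replicate 1 left out, the other dry library was above both wet ones at 47 members, against 37.5% of all loci. Within TAM111 both dry libraries were above its single wet library at 33 members, against 30.7%. Without replicate 1 of TAM112 under dry the dry libraries were all above the wet ones at 26 members, against 8.68% of all loci tested, and without replicate 1 of TAM111 under dry at 34, against 9.92%. The locus left out of the tests, XLOC_003997 on chromosome 1A, overlaps another locus and had 329 FPKM in the wet TAM111 library of HD, beside at most 13.0 FPKM in the other 14 libraries. FPKM sums all entries of the locus, and the entry that best overlaps it held 9.59 fragments there.

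**Figure D2:**
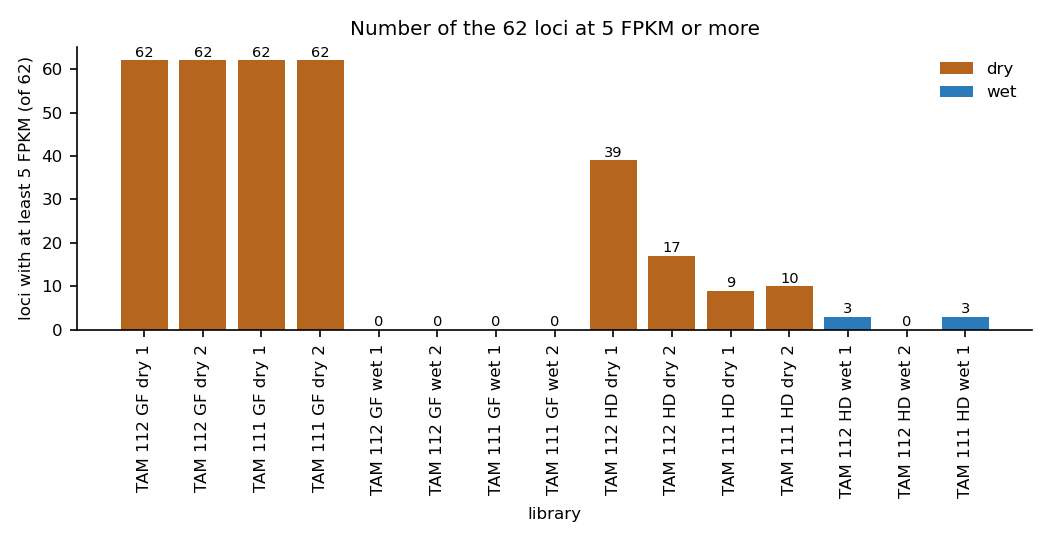
Number of the 62 loci with at least 5 FPKM in each library, for dry (brown) and wet (blue) leaves at GF and then at HD. All 62 are over the limit in dry GF leaves and 0 in wet GF leaves by the way they were chosen, and at HD the counts are 39 and 17 in dry TAM112, 9 and 10 in dry TAM111, and between 0 and 3 under wet.

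In replicate 1 of TAM112 under dry 39 members had 5 FPKM or more and the median member 7.62 FPKM, against 17 members and 2.20 FPKM in replicate 2 of that group. This library was the higher of the 2 replicates at 55 of the 62 members, whereas replicate 1 was the higher at 45.1% of all loci tested. In TAM111 under dry at HD the 2 libraries had 9 and 10 members at 5 FPKM or more, with medians of 0.927 and 1.48 FPKM. What set the 2 TAM112 libraries apart was not tested.

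The dry–wet change at HD was tested as the mean of the 2 cultivars, with limma on log2(FPKM + 1), Benjamini-Hochberg adjustment over all loci, an adjusted p below 0.05 and a change of at least 2-fold. All 61 members tested had a positive change, with a median of 1.16, against a median of 0.04 and 53.7% positive among all loci tested. It was at least 1 at 38 members, against 4.34% of all loci. Most members were low under wet at HD, so these directions are partly fixed by that level, to which all loci tested were not matched. The test called 11 members up and 0 down, where 0.381% of all loci were called up. Without replicate 1 of TAM112 under dry the median was 0.86 with 58 positive and 7 were called, and without replicate 1 of TAM111 under dry it was 1.35 with 60 positive and 10 called. Without replicate 2 of TAM112 under dry the test called 20.

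The spread in this fit is estimated over both stages, and the limits hold the wet GF values of the members, though not those of other loci, at or under 1 FPKM, so the count of 11 is not independent of the selection and nothing is read from it against the background. The same holds for counts of calls and of unadjusted p in the other contrasts of this fit. Fitted to the 7 HD libraries alone, the same contrast called 1 member, XLOC_050649, where 1.15% of all loci were called in either direction. The other 10 of the 11 calls were made only with the spread estimated over both stages. No exact permutation test was run on single loci, because with 4 and 3 libraries its smallest two-sided p is 0.0571. The count of 11 was 6 without replicate 2 of TAM111 under dry and 5 without replicate 2 of TAM112 under wet, and both of these are HD libraries.

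The strongest calls were at loci with no product name. XLOC_060461 (TraesCS4B01G210100, 3 exons on part 1 of chromosome 4B, 448801799 to 448803253) had 26.6 and 6.92 FPKM in dry TAM112 and 7.67 and 9.03 FPKM in dry TAM111 at HD, against 0.592, 0.197 and 0.505 FPKM under wet. It rose by 3.03 ± 0.39 (adjusted p = 0.00994, limma with Benjamini-Hochberg adjustment) and also passed in TAM112 alone, by 3.42 (adjusted p = 0.0204, same fit). At GF it had 58.7 and 37.0 FPKM in dry TAM112 and 26.4 and 31.0 FPKM in dry TAM111. This locus was called in all 14 fits that left out 1 library.

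On the group 2 chromosomes 3 members of 1 exon on the minus strand were all called. XLOC_027941 (TraesCS2B01G490400, part 2 of chromosome 2B, 235015943 to 235016734) had the highest mean of all members in dry HD leaves, with 54.9 and 51.5 FPKM in TAM112 and 11.8 and 19.7 FPKM in TAM111, against 4.47, 0.407 and 2.75 FPKM under wet. It rose by 3.20 ± 0.43 (adjusted p = 0.0112, limma with Benjamini-Hochberg adjustment). Its level in dry leaves at HD was 80.5% of that at GF, and it was thus 1 of the 9 members over 50%.

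XLOC_034619 (TraesCS2D01G467500, part 2 of chromosome 2D, 110455992 to 110456537) had 5.52 and 4.85 FPKM in dry TAM112 and 4.88 and 13.5 FPKM in dry TAM111, and under wet it was read in 1 library, at 0.607 FPKM. It rose by 2.75 ± 0.38 (adjusted p = 0.0122, limma with Benjamini-Hochberg adjustment). XLOC_021112 (TraesCS2A01G467500, part 2 of chromosome 2A, 249495046 to 249495789) had 7.91 and 5.13 FPKM in dry TAM112 and 1.51 and 5.44 FPKM in dry TAM111, against 0, 0 and 0.715 FPKM under wet, and rose by 2.06 ± 0.33 (adjusted p = 0.0220, same fit). Whether the 3 loci are copies of 1 gene was not tested, and they were put together after their values were seen. XLOC_021112 was called in 11 of 14 fits that left out 1 library, and not without replicate 1 of TAM112 under dry or either replicate of TAM112 under wet at HD (adjusted p between 0.0536 and 0.0713). The other 2 loci were called in all 14.

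The remaining calls were XLOC_073109 on chromosome 5A (TraesCS5A01G392100) and XLOC_050974 on chromosome 3D (TraesCS3D01G219400). XLOC_073109 had 27.1 and 5.32 FPKM in dry TAM112 and 2.75 and 1.27 FPKM in dry TAM111 and was listed at 0 under wet, and it rose by 2.64 ± 0.46 (adjusted p = 0.0330, limma with Benjamini-Hochberg adjustment). XLOC_050974 had 6.67 and 3.56 FPKM in dry TAM112 and 2.80 and 3.87 FPKM in dry TAM111, against 1.20, 0.298 and 0.525 FPKM under wet, and rose by 1.65 ± 0.29 (adjusted p = 0.0331, same fit). The first was called in 4 of 14 fits that left out 1 library (adjusted p between 0.00360 and 0.0903), and the second in 6 of 14 (adjusted p between 0.0320 and 0.0967).

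**Figure D3:**
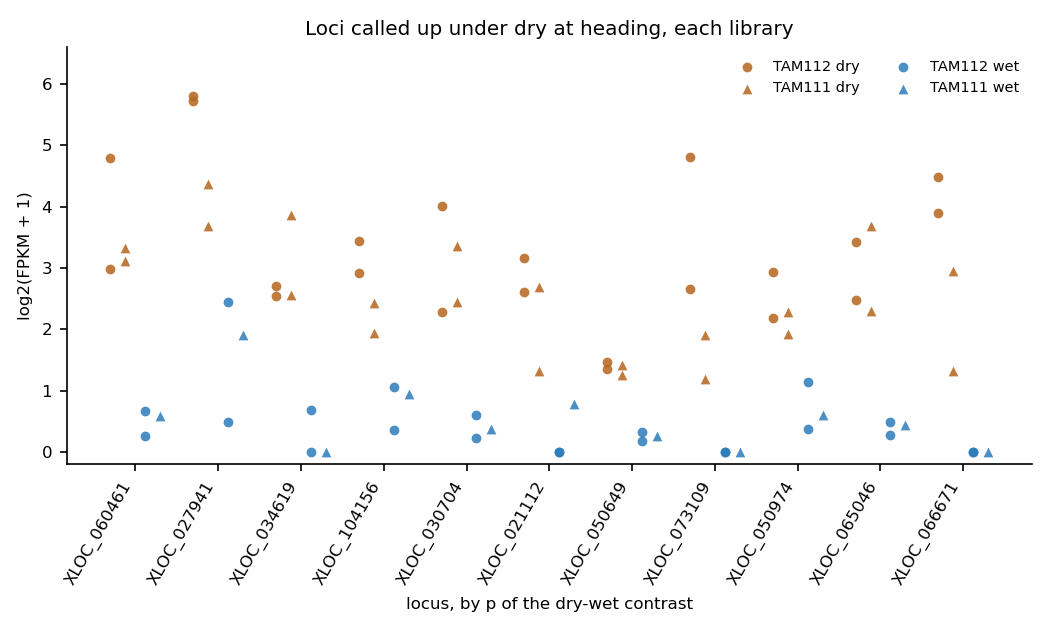
The 11 loci called up under dry at HD (x axis, by p), with log2(FPKM + 1) in each HD library (y axis) for dry (brown) and wet (blue) leaves of TAM112 (circles) and TAM111 (triangles). At each locus the 4 dry libraries lie above the 3 wet libraries, and the spread among the dry ones is widest where replicate 1 of TAM112 is far above replicate 2, as at XLOC_073109 with 27.1 and 5.32 FPKM.

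Other members were high in dry HD leaves without a call. XLOC_080556 on chromosome 5D had 85.2 and 0 FPKM in dry TAM112 and 6.43 and 0 FPKM in dry TAM111, so 1 library carried its mean, and it passed the test only without replicate 2 of TAM112 under dry (limma with Benjamini-Hochberg adjustment, adjusted p = 0.0465, against 0.563 with all libraries and 0.832 without replicate 1). XLOC_073589 on chromosome 5A had 22.3 and 18.0 FPKM in dry TAM112 and 13.4 and 12.7 FPKM in dry TAM111, but also 18.1, 3.58 and 7.87 FPKM in the wet HD libraries. It was thus on in watered leaves at HD. In watered leaves at GF the selection held it at or under 1 FPKM, and its highest wet value there was 0.982 FPKM. At this locus 3 fragments equal 2.945 FPKM, so silence at GF was not resolved, and the stages were not compared by a test.

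By cultivar, the change at HD had a median of 1.87 over the members in TAM112 and of 0.59 in TAM111, against 0.04 and 0 over all loci tested. It was positive at 59 members in TAM112 and at 51 in TAM111, and the low wet level of the members partly fixes these directions too. In TAM112 the median was 1.21 with 52 positive without replicate 1 under dry, and 2.36 without replicate 2. In TAM111 it was 0.77 without replicate 1 under dry, and 0.35 with 38 positive without replicate 2. The test called 5 members up in TAM112, where 0.306% of all loci were called up, and 0 in TAM111, where 0.0592% were (limma with Benjamini-Hochberg adjustment). In TAM111, 14 members had an unadjusted p below 0.05, against 8.19% of all loci. These counts use the spread estimated over both stages, so they are not independent of the selection and nothing is read from them against the background. The 5 members were XLOC_060461, XLOC_027941, XLOC_104156, XLOC_021112 and XLOC_073109, and the count was 2 without replicate 1 of TAM112 under dry, 18 without replicate 2, 3 and 1 without replicates 1 and 2 of TAM112 under wet, and 0 in the libraries of this contrast alone.

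A call in TAM112 and none in TAM111 does not show that the cultivars differ, and the difference of their changes was tested as an interaction. It passed at 0 of the 61 members (limma with Benjamini-Hochberg adjustment, adjusted p below 0.05), where 0.153% of all loci passed, and 12 members had an unadjusted p below 0.05, against 5.65% of all loci. The spread is again that of both stages, so nothing is read from these shares. The median difference of the changes was 1.11, with TAM112 the larger at 53 members, against 0.06 over all loci. Without replicate 1 of TAM112 under dry the median was 0.36, with TAM112 the larger at 35 members. Without replicate 1 of TAM111 under dry it was 0.72, with TAM112 the larger at 50 members. Without replicate 2 of TAM112 under dry 4 members passed, and without replicate 1 of TAM112 under wet 1 did.

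In dry GF leaves the mean was higher in TAM112 at 51 of the 62 members, and the median member averaged 19.6 FPKM in TAM112 and 12.7 FPKM in TAM111. Both TAM112 libraries were above both TAM111 libraries at 30 of the 61 members tested, against 18.0% of all loci, and below both at 4, against 20.1%. The median difference, TAM112 minus TAM111, was 0.68 on the log2 scale, against 0 over all loci tested, and was 0.72 with median-ratio scaling of the libraries.

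Each member had to reach 5 FPKM in all 4 dry GF libraries, so loci on in a single cultivar could not be members, and the shares of members set beside those of all loci in dry GF leaves are partly fixed by the selection. No single member was called between the cultivars there, where 1.70% of all loci were (limma with Benjamini-Hochberg adjustment). At an unadjusted p below 0.05 there were 10 members, against 12.1% of all loci, and nothing is read from these shares. Leaving out either dry TAM112 library of HD, which has no part in the difference itself but in the estimated spread, gave 2 calls. Dehydrin 4 at XLOC_098329 had both TAM112 libraries above both TAM111 libraries, with a difference of 1.34 ± 0.98, and its adjusted p of 0.652 was 0.0122 without replicate 1 and 0.0115 without replicate 2 of TAM112 under dry at HD.

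At HD under dry the mean was higher in TAM112 at 53 of the 62 members. Both TAM112 libraries were above both TAM111 libraries at 27 of the 61 tested, against 19.0% of all loci, and below both at 1, against 15.4%. A locus at 0 in either TAM111 library cannot have both TAM112 libraries below it, and the reverse holds too. Members at 0 numbered 20 and 8 in replicates 1 and 2 of dry TAM111 and 3 and 9 in those of dry TAM112. These shares are thus partly fixed by low levels. The median difference was 1.04, and it was 0.37 without replicate 1 of TAM112 and 0.84 without replicate 1 of TAM111. The test called 1 member higher in TAM112, where 0.212% of all loci were (limma with Benjamini-Hochberg adjustment). It was XLOC_064996 (TraesCS4D01G197700, part 1 of chromosome 4D, 343061456 to 343061715), with 37.5 and 66.3 FPKM in TAM112 and 0 in both TAM111 libraries (5.67 ± 0.93, adjusted p = 0.0316). Its transcript has 165 bases, and the 2 TAM112 values stand for 3 and 5 fragments. The call was made in 2 of 14 fits that left out 1 library, those without replicate 1 or 2 of TAM112 under wet at HD, and adjusted p over the 14 lay between 0.000193 and 0.158.

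In wet HD leaves the median difference between the cultivars was 0 and 0 members were called, where 0.834% of all loci were (limma with Benjamini-Hochberg adjustment), and 2 members had an unadjusted p below 0.05, against 8.75% of all loci. In 2 libraries of TAM112 and 1 of TAM111 most of these values are near 0, with medians of 0.295 and 0 FPKM and of 0.173 FPKM.

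**Figure D4:**
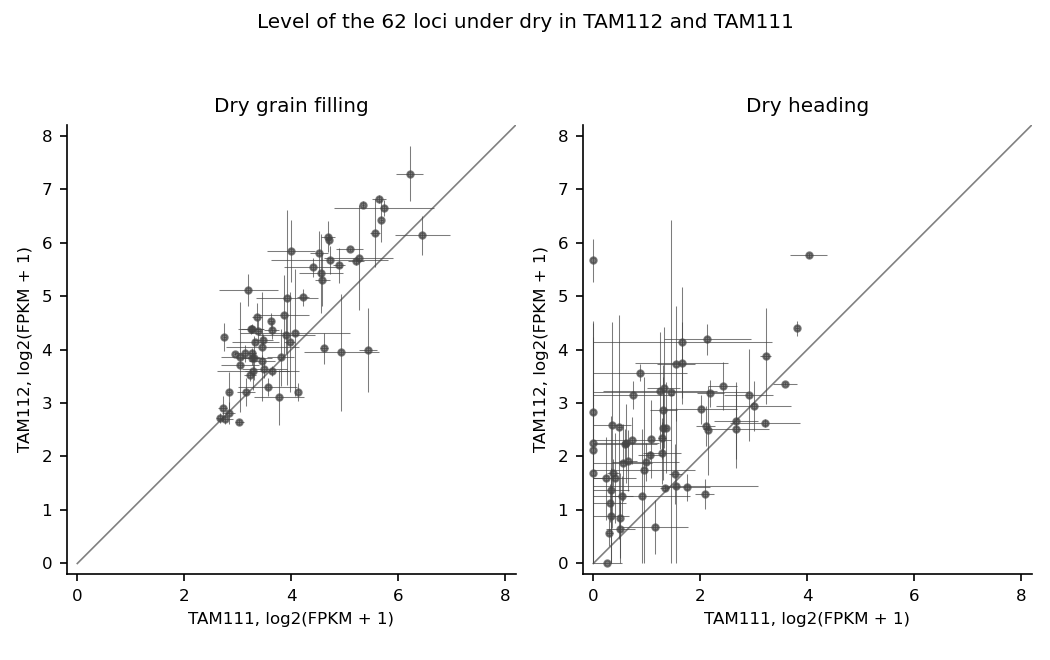
Mean log2(FPKM + 1) of each of the 62 loci in TAM112 (y axis) and TAM111 (x axis) under dry at GF (left) and HD (right), with bars from the lower to the higher of the 2 libraries. Points above the diagonal are higher in TAM112. At GF both TAM112 libraries are above both TAM111 libraries at 30 of the 61 loci tested, and at HD the vertical bars are longer, with replicate 1 of TAM112 above replicate 2 at 55 of the 62.

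Of 14 other loci with the same product as a member, 6 missed only the wet limit, 6 only the dry limit and 2 both, and at 10 of them every dry GF library was above every wet one. For HSC70, XLOC_054388 on chromosome 4A had between 60.4 and 124 FPKM in dry GF leaves and between 18.1 and 21.8 FPKM in wet ones, and XLOC_060437 on chromosome 4B between 31.1 and 61.3 FPKM and between 2.23 and 3.76 FPKM. The CBL-interacting protein kinase 14 loci XLOC_061133 on chromosome 4B and XLOC_056016 on chromosome 4A had between 19.7 and 46.3 FPKM and between 12.8 and 23.4 FPKM in dry GF leaves, and up to 2.32 and 1.07 FPKM in wet ones. Phosphatase 2C 37 on chromosome 2A, XLOC_015328, was listed at 0 in every wet library and missed the dry limit, with between 4.81 and 11.4 FPKM. An hsp26 locus on chromosome 4A, XLOC_055210, was at 0 in 3 of the 4 dry GF libraries.

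A glutaredoxin-C1 locus on chromosome 3B, XLOC_046666, had between 44.3 and 84.0 FPKM in dry GF leaves, above the member on chromosome 5B, and up to 1.32 FPKM in wet ones. The heat shock factor 7 loci XLOC_116288 on chromosome 7D and XLOC_109528 on chromosome 7B, like the member on 7A, had nearly equal means in dry leaves at both stages, 13.1 FPKM at GF and 12.8 FPKM at HD for the first, and 7.01 FPKM at GF and 7.94 FPKM at HD for the second. XLOC_116288 was also called up at HD, by 2.23 (adjusted p = 0.0220, limma with Benjamini-Hochberg adjustment). The P-loop locus XLOC_060840 on chromosome 4B went the other way, with between 0.789 and 2.74 FPKM in dry GF leaves and between 2.71 and 4.91 FPKM in wet ones.

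The families to which members belong were read in the same fit at HD (mean of both cultivars), from product lists that the study drew up on these samples, so they are not independent evidence of a direction. In this fit 0.381% of all loci tested were called up and 0.657% down. The lists hold genes that the study called different between dry and wet, so nothing is read from the counts against these shares. Of the small heat shock proteins 17 of 37 tested were called up and 0 down, with a median of 1.67, and only 1 of the 37 was a member, since 27 were silent in wet GF leaves but 5 reached 5 FPKM in all dry ones. Of the dehydrins 2 of 13 were called up (median 1.99), of the heat shock factors 2 of 9 (median 1.37) and of the protein phosphatases 2C 3 of 11 (median 1.30). None of the 13 LEA loci and none of the 2 dioxygenase loci of ABA synthesis was called, with medians of 0.61 and 1.11, and no locus of these 6 families was called down (limma with Benjamini-Hochberg adjustment).

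Other families on these lists held no member. The 7 loci of proline synthesis were all above 1 FPKM in some wet GF library, and 2 were called up at HD (median 0.63). Of the 4 galactinol synthase loci tested, which start the raffinose pathway, 0 were called (median 0.92). The 6 aquaporins, channels that let water through membranes, had a median of -0.47 with 0 called in either direction. The median over all loci tested was 0.04.

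In gene structure the members were shorter and simpler than the loci tested. The longest transcript had a median of 930 bases, against 1376 bases, and 21 members (33.9%) had 1 exon, against 16.2% of the loci tested. The 3 subgenomes were about equally represented, with 20 members on A, 19 on B and 22 on D chromosomes and 1 on unplaced sequence, close to the shares of all loci tested (32.3%, 33.9% and 32.9%). Groups 5 and 3 held the most, with 13 and 12 members. Shares of all loci were not taken for the groups, and the selection left out the first parts of chromosomes 1A, 1B and 1D. Nothing is read from this order. Near the listed dehydrin loci that were left out lay XLOC_095980 on chromosome 6B, 46345 bases from XLOC_094800, and Dehydrin 4 at XLOC_098329, 359755 bases from XLOC_098330.

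Short transcripts make the limits uneven. Under the reading of the bounds given above for depth, the best-overlapping entry of a member held a median of 43.5 fragments in a dry GF library. At 14 members at least 1 of the 4 dry values had under 10 fragments in that entry, and at 4 members all of them did. Fragments and summed FPKM need not match. At XLOC_008564, 37.7 FPKM in replicate 1 of dry TAM111 went with 28.9 fragments, and 8.18 FPKM in replicate 2 of dry TAM112 with 47.9. Among the 57 members that overlap no other locus, 3 fragments equal between 0.210 and 39.7 FPKM, with 8 members at which 3 fragments exceed 5 FPKM. At 33 of the 57, 3 fragments exceed 1 FPKM, so under this reading a value of 0 allows a level above the wet limit. Silence in wet leaves was thus not resolved, and these intervals cover counting error only. The 48 members with at least 10 fragments in each dry GF library held all 11 calls at HD, with a median change of 1.30.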

How the data were processed

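FPKM values were deposited by the authors per library: reads were trimmed (Trimmomatic 0.38), aligned with TopHat2 to IWGSC RefSeq v1.0, and assembled and quantified with Cufflinks, with confidence bounds (tools per the submitters' processing notes and the study's methods). The loci are those of the merged Cufflinks catalogue deposited with them, and product names come from the study's supplementary lists. Entries were assigned to loci by overlap (bedtools 2.31.1), ignoring strand, and FPKM was summed per locus. A locus with no entry was read as 0. Coordinates are on the chromosome parts. A total of 49025 loci with at least 1 FPKM in at least 2 libraries and no ambiguous entry were tested. With limma 3.58.1 (R 4.3.3), log2(FPKM + 1) was fitted, with a pseudocount of 1 and no scaling, to the 8 group means (15 libraries, 7 residual degrees of freedom, mean-variance trend). P-values were adjusted by Benjamini-Hochberg over all loci per contrast, and the fit was tested on simulated data. Fold changes of low loci are understated on this scale. Replicates are pools of separate plants.

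Named loci are members with a product, the 5 highest in dry GF and in dry HD leaves, the 10 smallest p among calls at HD, the calls between cultivars in dry GF leaves (none), and 2 loci on each side of each limit. Others are named only as stated. Members, lists and rules were chosen with earlier results of these data known. Alternatives were the pseudocount, filter, scaling, own libraries, trend, replicate block, each library left out and other limits. Over all loci the replicate numbers showed no pairing of the libraries, since over the 21 pairs of groups the deviations correlated between -0.04 and 0.09 and in 0 pairs over 0.1. Over the members 10 of the 21 pairs were over 0.1, up to 0.38, so pairing at the members was not settled.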

Additional observations from a re-analysis of the deposited data

Results flagged for a closer look

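At 2 members the cultivars moved in opposite directions at HD in every library. XLOC_051629 on chromosome 3D had 3.30 and 2.90 FPKM in dry and 0.709 and 0.570 FPKM in wet TAM112, and 1.40 and 0.795 FPKM in dry and 1.44 FPKM in wet TAM111. The interaction of 1.55 on the log2 scale did not pass the test (adjusted p = 0.340, limma with Benjamini-Hochberg adjustment). XLOC_003997 on chromosome 1A had 9.44 and 9.08 FPKM in dry and 7.23 and 0 FPKM in wet TAM112, and 9.23 and 13.0 FPKM in dry and 329 FPKM in wet TAM111. It overlaps XLOC_003124, and its difference was not tested. Beside the 329 FPKM, the entry that best overlaps the locus held 9.59 fragments, and beside the 7.23 FPKM in wet TAM112 it held 51.9. Its direction in TAM111 thus hangs on 1 summed value that is out of scale with the fragments of that entry. Each cultivar has few libraries, with 1 under wet in TAM111, and the causes were not tested.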

How the results depend on the processing

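Fitted to the libraries of the contrast alone, the calls were 1 at HD (mean of both cultivars, 1.15% of all loci), 0 in TAM112 at HD (0.051%), 0 between cultivars in dry HD (0.00612%) and 2 in wet HD leaves (2.29%). A pseudocount of 0.1 gave 10 calls in TAM112 and 1 in TAM111 at HD and a median change of 2.475. No filter gave 1 in TAM111 at HD and 0 between cultivars in dry HD leaves. A wet limit of 0.5 FPKM left 40 members, with 6 calls at HD and 3 in TAM112, and a dry limit of 10 FPKM left 23, with 7 calls at HD and a median of 1.704. At least 10 fragments in each dry GF library, a choice made after seeing the data, left 48 members and 0 calls between cultivars in dry HD leaves. Without replicate 1 of wet TAM111 at GF, also chosen after seeing the data, 73 loci met the limits, among them all 62, with 12 calls at HD. With each of 14 libraries left out in turn, where a group left with 1 library was assumed to vary like the others, calls at HD ranged from 5 to 20 (TAM112 1 to 18, TAM111 0 to 1), between cultivars from 0 to 2 in dry GF, 0 to 7 in dry HD and 0 to 1 in wet HD leaves, and interactions from 0 to 4. The median change at HD ranged from 0.86 to 1.67 and the cultivar median in dry GF leaves from 0.52 to 0.91. The single wet TAM111 library of HD could not be left out. Replicate numbers do not pair the libraries over all loci (0 pairs of groups over 0.1), but over the members 10 of the 21 pairs of groups correlated over 0.1 (from -0.34 to 0.38). With the replicate block there were 8 calls at HD (0.736% of all loci) and 6 in TAM112, and the calls at XLOC_065046, XLOC_066671, XLOC_050974 and XLOC_050649 were lost (adjusted p = 0.0601, 0.0752, 0.0592 and 0.0501, limma with Benjamini-Hochberg adjustment). Scaling by median ratios or quantiles moved no count by over 1.5 times, and median-ratio scaling before the limits left 50 members. At the named loci 0 of the changes reversed under any alternative, and the causes of lost calls were not tested.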

Other observations

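The same limits met other loci. Of the 11850 loci without a reference gene, 27 were at or above 5 FPKM in all dry and at or under 1 FPKM in all wet GF libraries. With the limits turned round, 29 loci with a reference gene were at or under 1 FPKM in all dry and at or above 5 FPKM in all wet GF libraries, after the same exclusions. Applied to each cultivar alone, with 2 dry and 2 wet libraries, the limits were met by 200 loci in TAM112 and by 133 in TAM111. At HD 4 loci met them in all libraries, of which 1 was a member.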
